A study of Mus musculus with 22 samples.

Results

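Iron and heme handling was described through 9 genes, chosen by name, of the 23997 in the expression table: the iron importers Tfrc and Slc11a2, the sensor Ireb2, the ferritin chains Fth1 and Ftl1, the exporter Slc40a1, the heme-degrading enzyme Hmox1 and the plasma proteins Hp and Cp. RNA-seq was done on whole colon of wild type BALB/c mice in 22 libraries, with drinking started at 5 weeks of age and lasting 3 weeks. The 8 CON libraries came from mice on distilled water, and the 5 DSS libraries from mice whose distilled water held 5% dextran sulfate sodium in the last week. Dextran sulfate sodium (DSS), a sulfated sugar polymer, damages the lining of the colon and is a standard way to set off colitis in mice. The 4 HMLS and 5 TM libraries came from mice that drank 1 of 2 deep sea waters for the same time, each with 5% DSS added in the last week. The series title ties deep sea water to dampened inflammation of the intestine, so the comparisons ask how the genes differ between colitis and healthy colon, and between each water and distilled water in colitis. No group drank deep sea water without DSS, and the makeup of the waters behind the names HMLS and TM is not given in the labels.

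Cells take up iron bound to transferrin through the transferrin receptor, and import ferrous iron through the transporter DMT1, the product of Slc11a2. Iron that is not used is stored inside ferritin, a shell of heavy and light chains, or leaves the cell through ferroportin, the product of Slc40a1 and the target of the liver hormone hepcidin. Heme oxygenase 1 opens the heme ring and frees its iron, haptoglobin binds free hemoglobin in plasma, and ceruloplasmin oxidizes iron so that transferrin can carry it. When iron is scarce, iron regulatory proteins, one of which is the product of Ireb2, bind a hairpin called the iron-responsive element. Binding in the 5′ untranslated region (UTR) of a message blocks its translation, and binding in the 3′ UTR slows its decay. Much of this control therefore acts on translation or on protein, which RNA levels do not show.

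The hairpin was searched for in the annotated UTRs of the 9 genes, since it is the feature through which iron itself acts on several of these messages. The search used the letters CNNNNNCAGTGN on the transcript strand alone, with 5 pairing bases on either side of a 6-base loop, the last of which was not G. It matched 4 of the 9 genes. A match was found in the 5′ UTR of 23 of 20580 genes (0.112%) and in the 3′ UTR of 100 of 20962 genes (0.477%). The 30-base windows are given 5′ to 3′ as DNA, with the loop in capitals, and in each the bases before the loop pair with those after it. Fth1 holds its hairpin at chr19:9982732-9982761 (plus strand, 5′ UTR, exon 2 of the transcript read), Ftl1 at chr7:45459778-45459807 (minus strand, 5′ UTR, exon 1) and Slc40a1 at chr1:45925464-45925493 (minus strand, 5′ UTR, exon 1), in GENCODE M21 on GRCm38. Tfrc holds 4, all in the 3′ UTR in exon 19 on the plus strand, at chr16:32631219-32631248, chr16:32631598-32631627, chr16:32631663-32631692 and chr16:32631710-32631739.
Fth1 5′ UTR: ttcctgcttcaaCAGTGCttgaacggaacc
Ftl1 5′ UTR: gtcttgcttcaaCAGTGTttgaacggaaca
Slc40a1 5′ UTR: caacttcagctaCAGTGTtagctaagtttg
Tfrc 3′ UTR, site 1: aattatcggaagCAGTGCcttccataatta
Tfrc 3′ UTR, site 2: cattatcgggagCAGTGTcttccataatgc
Tfrc 3′ UTR, site 3: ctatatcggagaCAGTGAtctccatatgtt
Tfrc 3′ UTR, site 4: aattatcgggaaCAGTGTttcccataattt
The ferritin pair carry the same stem letters next to the loop. For Slc11a2, Hmox1, Hp, Cp and Ireb2 no window of the annotated UTRs met the search, which allowed no bulge or mismatch in the 5 pairs and so can miss a hairpin of another shape.

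The libraries held 48089882 to 68733410 reads, of which 82.3% to 88.9% mapped in DSS and 88.8% to 92.7% in the other groups. Values are FPKM, fragments counted per length of transcript and per size of the mapped library, so levels can be set side by side between genes. The reads behind a single gene's value are not known, and precision rests on the spread between libraries. The labels do not say that each library is a separate mouse, so p-values measure the spread between these libraries. CON8 (a library is named by its group and the number in its title) stood apart from the other 7 CON libraries in several of the 9 genes: it was the highest CON library in 5 of them and the lowest in 2. Over 13788 genes, CON8 stood apart from the rest of its group, by Dixon's test, in 292 genes (2.12%), against 23 to 179 genes for the other 7 CON libraries. The same count was 335 (2.43%) for DSS5 and 432 (3.13%) for TM3. The test was made within each group and the groups differ in size, so these percents cannot be ranked between groups. In whole colon, fewer cells of a type and less RNA per cell cannot be told apart, which holds for every difference below.

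All 9 genes were above the filter on low values in every comparison, and 8 of them reached 1 FPKM in all 22 libraries; Hp did so in 19. By mean FPKM over all libraries, Fth1 ranked 20 and Ftl1 ranked 23 of the 23997 genes. Slc40a1 ranked 610, Tfrc 1452, Ireb2 3532, Hmox1 4750 and Slc11a2 4760, with Hp at 8382 and Cp at 10799.

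In DSS against CON, 2 of the 9 genes rose and none fell at an adjusted p under 0.05 (limma on log2(FPKM + 1), Benjamini-Hochberg over all genes tested), where 27.1% of the 13483 genes tested were called. They were the ferritin heavy chain Fth1 and the exporter Slc40a1. At an unadjusted p under 0.05 there were 4 of the 9, beside 41% of all genes. The median log2 difference of the 9 genes was 0.30, beside -0.01 over all genes. In HMLS against CON, Fth1 rose and the importer Slc11a2 fell, 2 of 9, where 34.1% of 13400 genes were called, and the medians were 0.38 and 0.00. An unadjusted p under 0.05 was met by 3 of the 9, beside 45.3% of all genes. In TM against CON, Cp alone of the 9 rose, where 26% of 13485 genes were called, and the medians were 0.42 and 0.01. An unadjusted p under 0.05 was met by 4 of the 9, beside 39.2% of all genes. The share of the 9 genes called was thus near or below that of all genes in each comparison with CON. The comparisons with CON share the same 8 CON libraries.

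**Figure D1:**
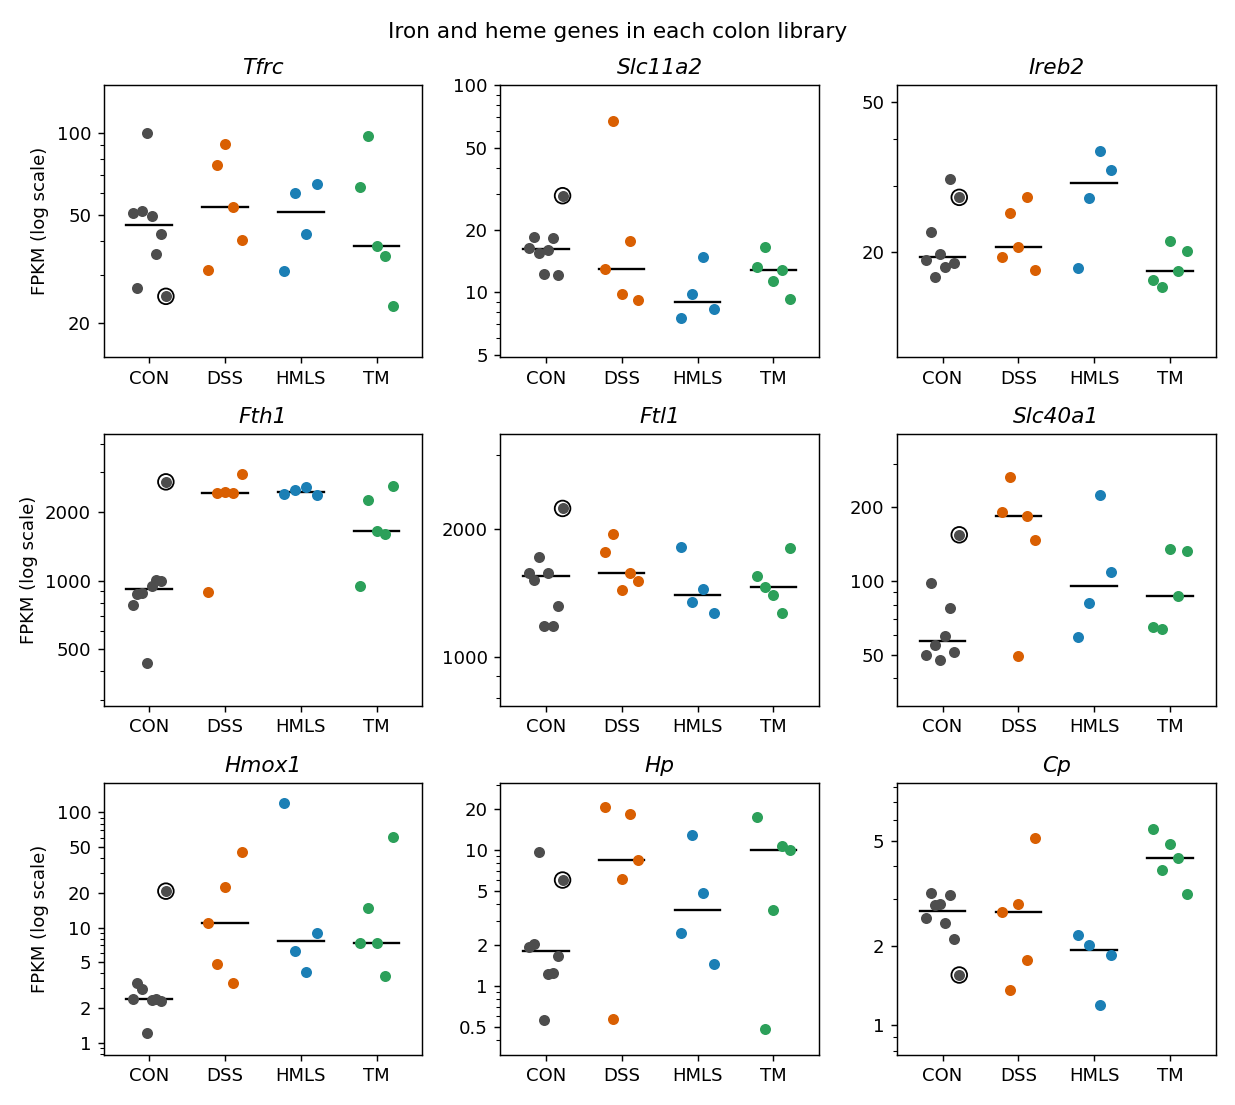
FPKM of the 9 genes (log axes, a scale for each panel) in each library of the 4 groups, 1 point a library, with the group median as a bar and CON8 ringed. Fth1 was between 434 and 1010 in the other 7 CON libraries and 2720 in CON8, and Cp was at 3.13 or above in every TM library and at 2.2 or below in every HMLS library.

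**Figure D2:**
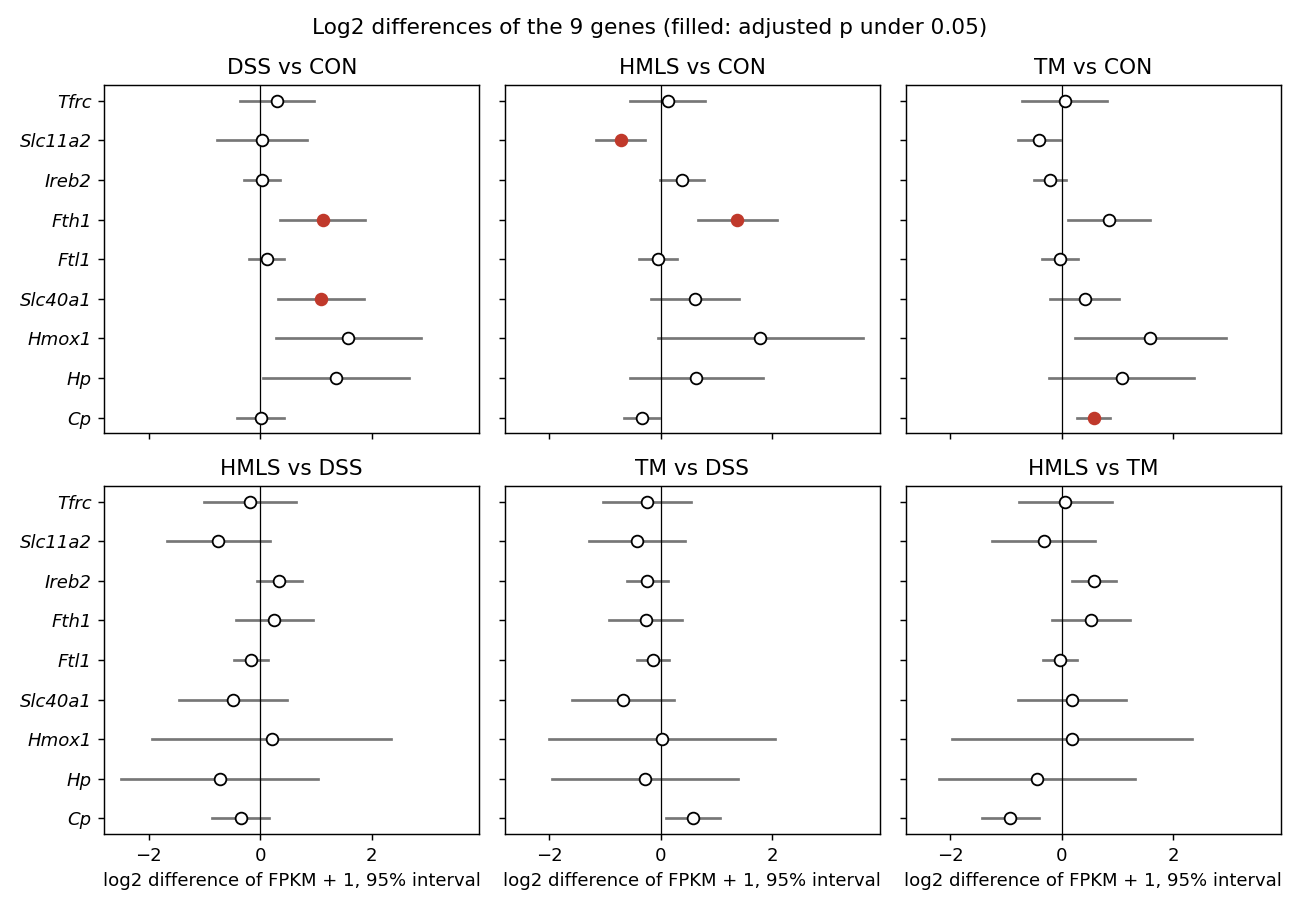
Log2 difference of FPKM + 1 (horizontal axis) for each gene in the 6 comparisons, with its 95% interval; filled points have an adjusted p under 0.05. The 5 filled points all lie in the comparisons with CON (Fth1 at 1.12 and 1.37, Slc40a1 at 1.09, Slc11a2 at -0.72 and Cp at 0.57).

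Iron uptake through transferrin was represented by Tfrc, the transferrin receptor (chr16:32608920-32632794, plus strand). Its level in CON ran from 25 FPKM in CON8 through a median of 45.8 to 100 in CON4. In DSS it was 31.2, 75.8, 90.8, 53.5 and 40.4 FPKM (libraries 1, 2, 5, 6 and 7, the order used for DSS throughout), and in HMLS 30.9, 60.0, 42.4 and 64.9 (libraries 3, 6, 7 and 8). In TM it was 63.2, 97.2, 38.2, 35.1 and 23.0 FPKM (libraries 3, 5, 6, 7 and 8). The groups overlapped along nearly their whole range, and each group spanned more than its distance to any other. The group means, in falling order, were 58.4 ± 24.7 in DSS (SD, n = 5), 51.3 ± 29.5 in TM (SD, n = 5), 49.6 ± 15.7 in HMLS (SD, n = 4) and 47.7 ± 23.7 in CON (SD, n = 8), and no neighbours in that order differed beyond their spread. The log2 differences from CON were 0.30 ± 0.31 (SE, adjusted p = 0.485) in DSS, 0.12 ± 0.32 (SE, adjusted p = 0.789) in HMLS and 0.05 ± 0.36 (SE, adjusted p = 0.928) in TM.

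The ferrous iron importer Slc11a2 (chr15:100387898-100425072, minus strand) fell in HMLS. Its CON level lay between 12.1 and 29.3 FPKM (CON8), with a median of 16.2. HMLS libraries were at 7.49, 9.77, 14.8 and 8.26 FPKM. All 4 were below the CON median, and 3 of 4 were below every CON library, with HMLS7 inside the CON range. The log2 difference was -0.72 ± 0.21 (SE, adjusted p = 0.0151, n = 4 against 8), a 1.65-fold lower level. The call ended without HMLS3 (adjusted p = 0.0536) and without HMLS8 (adjusted p = 0.0573), and with all 4 groups in one fit (adjusted p = 0.12) or the percent of mapped reads as covariate (-0.36, adjusted p = 0.249).

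In DSS, Slc11a2 was at 12.9, 67.0, 9.77, 17.7 and 9.20 FPKM, so DSS2 was above every other library of the study DSS5 and DSS7 were below every CON library and the other 2 lay inside the CON range. The DSS difference was 0.03 ± 0.38 (SE, adjusted p = 0.957). In TM it was at 13.2, 16.5, 11.4, 12.8 and 9.30 FPKM, with 1 of 5 above the CON median, and the difference of -0.40 ± 0.18 (SE) had an adjusted p of 0.108. The order of means, 23.3 ± 24.7 in DSS (SD, n = 5), 17.3 ± 5.39 in CON (SD, n = 8), 12.6 ± 2.64 in TM (SD, n = 5) and 10.1 ± 3.27 in HMLS (SD, n = 4), thus places DSS first through 1 library. The FPKM of Slc11a2 sums messages with and without an iron-responsive element, which alternative 3′ ends of this gene give, and the values do not separate them.

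Ireb2, the iron regulatory protein 2 (chr9:54863789-54912530, plus strand), ran in CON from 17.1 through a median of 19.3 to 31.3 FPKM. It was at 19.3, 25.4, 20.6, 27.9 and 17.9 in DSS, at 18.1, 27.8, 37.1 and 33.0 in HMLS, and at 16.8, 16.1, 21.4, 17.8 and 20.1 in TM. HMLS7 and HMLS8 were above all CON libraries and HMLS3 was low, while the TM libraries lay in the lower part of the CON range or under it. Means fell from 29.0 ± 8.19 in HMLS (SD, n = 4) through 22.2 ± 4.25 in DSS (SD, n = 5) and 21.8 ± 5.16 in CON (SD, n = 8) to 18.4 ± 2.23 in TM (SD, n = 5), and no neighbours in this order were further apart than the larger of their SDs. Against CON the log2 differences were 0.04 (adjusted p = 0.879) in DSS, 0.38 (adjusted p = 0.127) in HMLS and -0.21 (adjusted p = 0.276) in TM.

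Iron storage gave the highest levels of the 9 genes. Fth1, the ferritin heavy chain that oxidizes iron as it enters the shell (chr19:9980598-9985098, plus strand), was in CON at 434 FPKM in the lowest library, at 1010 in the next to highest and at 2720 in CON8. In DSS it was at 888, 2430, 2460, 2440 and 2950 FPKM, in HMLS at 2400, 2500, 2590 and 2390, and in TM at 947, 2260, 1660, 1600 and 2610. DSS1 and TM3 lay among the CON libraries, CON8 lay among the colitis libraries, and every other colitis library was above every other CON library. The HMLS libraries sat closest together of the 4 groups.

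Fth1 averaged 2470 ± 92.3 FPKM in HMLS (SD, n = 4), 2230 ± 784 in DSS (SD, n = 5), 1820 ± 642 in TM (SD, n = 5) and 1080 ± 688 in CON (SD, n = 8), the last being 848 ± 199 without CON8 (SD, n = 7). HMLS and DSS did not differ beyond their spread, nor did DSS and TM. The log2 difference from CON was 1.12 ± 0.36 in DSS (SE, adjusted p = 0.0328), a 2.17-fold higher level. It was 1.37 ± 0.33 in HMLS (SE, adjusted p = 0.00732), a 2.58-fold higher level. In TM it was 0.85 ± 0.34 (SE) and missed the threshold at an adjusted p of 0.0819, with 5 of 5 libraries above the CON median.

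The Fth1 call in DSS depended on single libraries. It ended in 7 of the 13 fits with 1 library left out, those without CON1, CON2, CON3, DSS2, DSS5, DSS6 or DSS7, with an adjusted p of up to 0.0878. Without CON8 the difference was 1.33 (adjusted p = 0.00431), and without DSS1 it was 1.42 (adjusted p = 0.00636). With the percent of mapped reads as a covariate, the difference was 0.74 (adjusted p = 0.547), and in that fit 26 of all genes were called. That percent was lower in every DSS library than in any CON library, so the covariate cannot be told apart from the group. The HMLS call held in all 12 fits with 1 library left out, and the TM value passed without CON8 (1.06, adjusted p = 0.0075) and without TM3 (1.06, adjusted p = 0.0334).

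**Figure D3:**
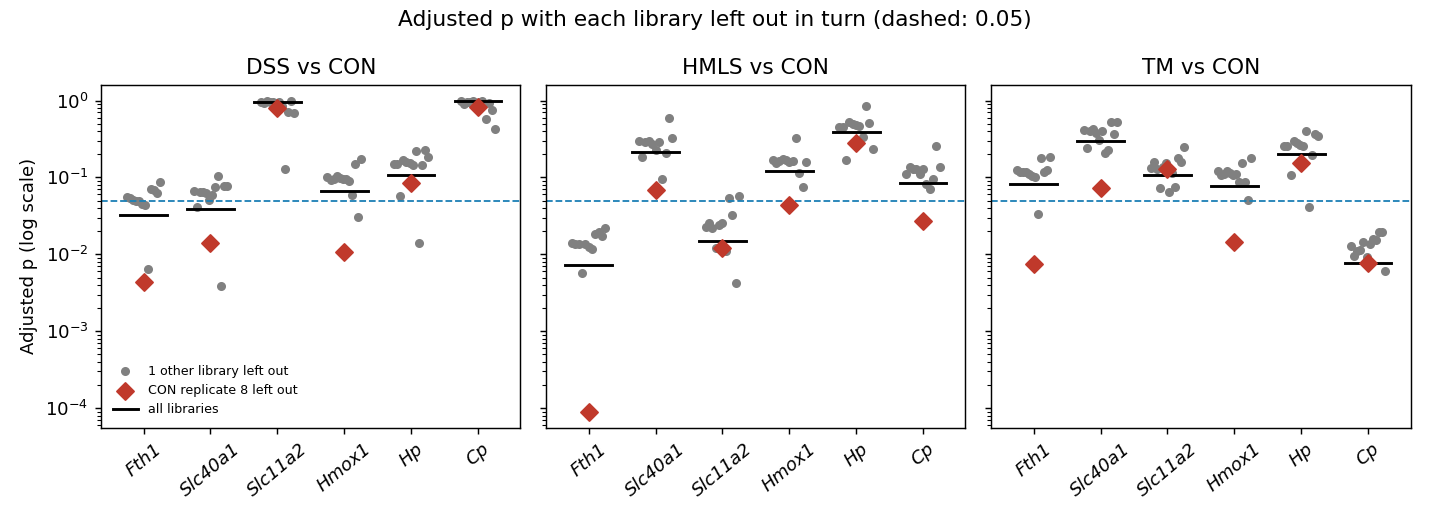
Adjusted p (log axis; the dashed line marks 0.05) of 6 genes in the comparisons with CON, with all libraries (bars), without CON8 (diamonds) and without each other library (points). Fth1 in HMLS stayed under the line in every fit, Cp in TM likewise, and Hmox1 was under it in all 3 comparisons without CON8.

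Ftl1, the ferritin light chain that helps build the iron core (chr7:45457944-45459884, minus strand), did not separate the groups in this way. It was at 1180, 1550 and 2240 FPKM in CON (lowest, median and highest, the last in CON8). It was at 1770, 1950, 1440, 1580 and 1510 in DSS, at 1820, 1350, 1450 and 1270 in HMLS, and at 1550, 1460, 1400, 1270 and 1810 in TM. All colitis libraries lay inside the CON range. Group means ran from 1650 ± 209 in DSS (SD, n = 5) through 1540 ± 343 in CON (SD, n = 8) and 1500 ± 202 in TM (SD, n = 5) to 1470 ± 243 in HMLS (SD, n = 4), with no neighbours apart beyond their spread. The log2 differences from CON were 0.12 in DSS, -0.05 in HMLS and -0.02 in TM, with adjusted p of 0.587, 0.825 and 0.924.

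The ratio of the chains moved with Fth1. The ratio of Fth1 to Ftl1 in FPKM ran from 0.366 to 1.22 in CON with a median of 0.586, and was above 1 in 1 of 8 libraries, CON8. It was above 1 in 4 of 5 DSS libraries, at 1.24, 1.71, 1.55 and 1.96, and at 0.503 in DSS1. All 4 HMLS libraries were above 1, from 1.32 to 1.88, as were 4 of 5 TM libraries, at 1.55, 1.19, 1.26 and 1.44, with TM3 at 0.61. The annotation names 5 pseudogenes of Fth1 and 2 of Ftl1, and the handling of reads shared with such copies is not described in the labels, so both ferritin levels are uncertain to that extent.

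**Figure D4:**
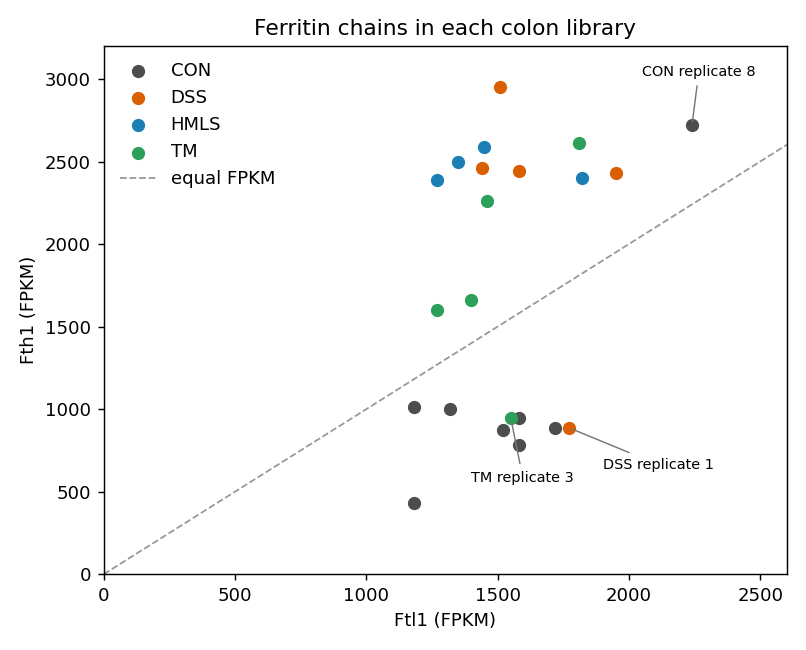
Fth1 against Ftl1 in FPKM (linear axes), 1 point a library, with the dashed line at equal FPKM. Most colitis libraries lie above the line and most CON libraries below it; CON8 (ratio 1.22) and DSS1 and TM3 (0.503 and 0.61) are the exceptions and are named.

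Slc40a1, the iron exporter ferroportin (chr1:45908068-45926523, minus strand), rose in DSS. CON libraries were at 47.6, 57.0 and 154 FPKM (lowest, median and highest, the last in CON8), and DSS libraries at 190, 265, 49.3, 184 and 147. Of the 5 DSS libraries 3 were above every CON library and DSS5 was near the bottom of the CON range. The log2 difference was 1.09 ± 0.36 (SE, adjusted p = 0.0388), a 2.13-fold higher level. HMLS libraries were at 59.1, 81.3, 224 and 109 FPKM, and TM libraries at 64.9, 63.4, 135, 86.7 and 132. All 9 were above the CON median, and HMLS7 alone was above CON8. The differences of 0.61 in HMLS (adjusted p = 0.213) and 0.42 in TM (adjusted p = 0.302) missed the threshold.

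Group means of Slc40a1 were 167 ± 78.5 FPKM in DSS (SD, n = 5), 119 ± 73.5 in HMLS (SD, n = 4), 96.2 ± 34.9 in TM (SD, n = 5) and 74.1 ± 36.6 in CON (SD, n = 8), and neighbours in this order overlapped within 1 SD. The DSS call held in 3 of the 13 fits with 1 library left out, those without CON2, CON8 or DSS5, and the adjusted p reached 0.103 without DSS2. It also ended without the filter on low values (adjusted p = 0.056), after quantile normalization (adjusted p = 0.0675) and with the percent of mapped reads as covariate (adjusted p = 0.344). Summed smooth muscle markers were at 561 to 2190 FPKM in DSS, 804 to 1760 in TM, 1290 to 2430 in HMLS and 1270 to 2470 in CON. Their median was 990 in TM, 1130 in DSS, 1420 in HMLS and 1920 in CON. Over the 22 libraries with group means removed, their correlation with Slc40a1 was -0.55. Macrophages that recycle red cells are a known site of ferroportin. Slc40a1 correlated with the macrophage sum at -0.60, the hepatocyte sum at -0.52, the erythroid sum at -0.47 and the neutrophil sum at -0.46. With the adipocyte, colon epithelium and dividing cell sums it was at 0.28, 0.16 and 0.12. These correlations are descriptions over libraries that share depth and dissection, and the part of tissue makeup in the Slc40a1 difference was not tested.

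Hmox1, heme oxygenase 1 (chr8:75093621-75100589, plus strand), spread widely within each colitis group, with the highest library at 13.6 times the lowest in DSS, 29.2 times in HMLS and 16.1 times in TM. It was at 1.21, 2.40 and 20.7 FPKM in CON (lowest, median and highest), where 20.7 was CON8 and the other 7 averaged 2.41 ± 0.649 (SD, n = 7). It was at 10.9, 4.87, 22.3, 3.31 and 44.9 FPKM in DSS, at 121, 6.2, 4.13 and 8.94 in HMLS, and at 7.38, 14.9, 7.34, 3.83 and 61.7 in TM. Every one of the 14 colitis libraries was above those 7 CON libraries, with DSS6 the nearest to them, and single libraries (DSS7, HMLS3, TM8) were far above their group. The group means, 35 ± 57.2 in HMLS (SD, n = 4), 19.0 ± 24.2 in TM (SD, n = 5), 17.3 ± 17.2 in DSS (SD, n = 5) and 4.70 ± 6.51 in CON (SD, n = 8), have no order beyond their spread.

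With all libraries, Hmox1 passed in none of the comparisons with CON. The log2 differences were 1.58 ± 0.60 in DSS (SE, adjusted p = 0.0665), 1.78 ± 0.83 in HMLS (SE, adjusted p = 0.121) and 1.59 ± 0.62 in TM (SE, adjusted p = 0.0778). Without CON8 they were 1.92 (adjusted p = 0.0108), 2.12 (adjusted p = 0.0441) and 1.93 (adjusted p = 0.0143), all past the threshold. Without HMLS3 the HMLS difference was 0.76 (adjusted p = 0.323). In CON8 the summed erythroid markers were at 37.5 FPKM beside a CON median of 37.2, and its macrophage markers, at 90.1, were the lowest in CON; the part of either in its Hmox1 level was not tested.

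Hp, haptoglobin (chr8:109575128-109579172, minus strand), was low and uneven. It was at 0.56, 1.80 and 9.63 FPKM in CON (lowest, median and highest), at 20.7, 0.575, 6.06, 18.2 and 8.35 in DSS, at 2.43, 12.9, 4.80 and 1.45 in HMLS, and at 17.4, 0.483, 3.61, 10.7 and 9.95 in TM. The groups overlapped throughout, since DSS2 and TM5 were as low as the lowest CON library. The means were 10.8 ± 8.44 in DSS (SD, n = 5), 8.42 ± 6.60 in TM (SD, n = 5), 5.39 ± 5.18 in HMLS (SD, n = 4) and 3.04 ± 3.14 in CON (SD, n = 8), and neighbours did not differ beyond their spread. The log2 differences from CON were 1.36 (adjusted p = 0.109) in DSS, 0.63 (adjusted p = 0.394) in HMLS and 1.08 (adjusted p = 0.202) in TM. The DSS value passed without DSS2 (1.97, adjusted p = 0.0142) and the TM value without TM5 (1.63, adjusted p = 0.0415).

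Liver is the main source of plasma haptoglobin and ceruloplasmin, and summed hepatocyte markers were at 8.42 FPKM or less in every library, with Ttr at 0 in none of the 22, Serpina1a in 2, Alb and Apoa1 in 3 each, Ahsg in 10 and Fgb in 14. Fat also makes haptoglobin. Summed adipocyte markers ran from 114 to 1470 FPKM in CON, 83.2 to 172 in DSS, 81.3 to 610 in HMLS and 66.7 to 157 in TM, and with group means removed they correlated with Hp at 0.69 over the 22 libraries. Of 9 adipocyte markers tested, 6 fell in DSS and 7 in TM, where 13.1% and 11.8% of all genes fell, and in HMLS 1 rose and 1 fell. How much of the Hp values came from fat was not tested.

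Cp, ceruloplasmin (chr3:19957054-20009145, plus strand), was the least abundant of the 9 genes and rose in TM. It was at 1.55, 2.71 and 3.17 FPKM in CON (lowest, in CON8, median and highest) and at 5.54, 3.89, 4.86, 4.29 and 3.13 in TM. Of 5 TM libraries, 4 were above every CON library and TM8 was at the top of the CON range. The log2 difference was 0.57 ± 0.14 (SE, adjusted p = 0.00779), a 1.49-fold higher level, and the call held in all 13 fits with 1 library left out and in the 8 other settings tried. DSS libraries were at 2.68, 1.36, 2.88, 1.76 and 5.14 FPKM, around the CON level with DSS7 above it, and the difference was 0.01 (adjusted p = 0.986). HMLS libraries were at 2.2, 2.02, 1.19 and 1.85 FPKM, all below the CON median, with a difference of -0.35 (adjusted p = 0.0859) that passed without CON8 (-0.42, adjusted p = 0.0269).

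Of the myeloid markers, the median macrophage sum was highest in TM and lowest in HMLS, as was Cp, and the median neutrophil sum was above that of CON in all colitis groups. Summed macrophage markers were at 153 to 229 FPKM in TM, 90.1 to 203 in CON, 72.9 to 152 in DSS and 52.6 to 126 in HMLS, and of 9 tested 2 rose in TM against CON (14.3% of all genes rose), 4 fell in HMLS (16.6% of all genes fell), and 1 rose and 1 fell in DSS. Summed neutrophil markers were at 4.29 to 90.9 FPKM in TM, 2.42 to 20.6 in HMLS, 2.77 to 62.4 in DSS and 0.822 to 2.66 in CON. The sum was mostly S100a8 and S100a9, which averaged 6.92 and 5.52 FPKM over all libraries, and no other marker in it averaged above 0.537. Of the 9 neutrophil markers listed, 2 could be tested in DSS, 1 in HMLS and 2 in TM against CON. Of the neutrophil genes, S100a8 rose in all 3 comparisons with CON (by 2.41 in DSS, 2.31 in HMLS and 2.98 in TM). S100a9 rose by 2.40 in DSS and by 3.04 in TM and was not tested in HMLS. Csf3r and Cxcr2 were at 0 in no library, S100a8 and S100a9 in 5, Ngp in 8, Mpo in 9, Camp in 12 and Elane in 21 of 22. With group means removed, Cp correlated with the neutrophil sum at 0.81, with the macrophage sum at 0.77 and with the colon epithelium sum at -0.63 (22 libraries). The epithelium sum was mostly Muc2 and Car1, which averaged 4590 and 4500 FPKM over all libraries. Lyz2, at 63.6 FPKM, was the largest part of the macrophage sum. The part of these cell types in the Cp values was not tested. On the means, Cp ran from 4.34 ± 0.92 FPKM in TM (SD, n = 5) through 2.76 ± 1.47 in DSS (SD, n = 5) and 2.59 ± 0.55 in CON (SD, n = 8) to 1.81 ± 0.44 in HMLS (SD, n = 4), and DSS and CON did not differ beyond their spread.

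Between the waters within colitis none of the 9 genes was called, and none of the 13341 genes tested was called in HMLS against DSS, TM against DSS or HMLS against TM (0% each, limma). At an unadjusted p under 0.05, 740 genes (5.55%) passed in HMLS against DSS, 367 (2.75%) in TM against DSS and 1260 (9.44%) in HMLS against TM. Of the 9 genes, 0, 1 and 2 did so. The 3 comparisons share libraries pairwise.

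The gene that set the waters apart most was Cp. HMLS libraries (1.19 to 2.2 FPKM) and TM libraries (3.13 to 5.54) did not overlap, with a log2 difference of -0.92 ± 0.24 (SE, 95% interval -1.43 to -0.41, unadjusted p = 0.00164, adjusted p = 0.407). TM against DSS gave 0.57 for Cp (95% interval 0.08 to 1.05, unadjusted p = 0.0242, adjusted p = 1), with 5 of 5 TM libraries above the DSS median. HMLS against DSS gave -0.35 (95% interval -0.87 to 0.16). Ireb2 was higher in HMLS than in TM by 0.59 ± 0.19 (SE, 95% interval 0.19 to 0.98, unadjusted p = 0.00645, adjusted p = 0.437), with 3 of 4 HMLS libraries above every TM library and HMLS3 inside the TM range. Neither difference passed over all genes.

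Intervals of the other differences between waters were wide. Fth1 differed by 0.25 in HMLS against DSS (95% interval -0.44 to 0.95) and by -0.27 in TM against DSS (-0.93 to 0.38). Slc40a1 differed by -0.49 (-1.45 to 0.48) and -0.68 (-1.59 to 0.24), and 0 of 5 TM libraries were above the DSS median of 184 FPKM. Hmox1 had the widest intervals, from -1.94 to 2.35 in HMLS against DSS and from -2.01 to 2.04 in TM against DSS. Ftl1 had the narrowest, from -0.47 to 0.14 and from -0.43 to 0.15. Tfrc, Slc11a2, Hp and Ireb2 had intervals that covered 0 in both comparisons with DSS. Over the 468 values of these 9 genes under other settings none was called, and the lowest adjusted p was 0.12.

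A wider list of 70 iron and heme genes places these results. Of the 66 in the table, 55 could be tested in DSS against CON, and 9 rose and 8 fell, beside 14% and 13.1% of all genes. In HMLS against CON, 7 rose and 9 fell of 54 tested, beside 17.5% and 16.6%. In TM against CON, 7 rose and 7 fell of 56 tested, beside 14.3% and 11.8%. The median log2 difference of the list was 0.04, 0.00 and 0.01, against -0.01, 0.00 and 0.01 over all genes. With the percent of mapped reads as covariate, 0 of the 17 calls in DSS held, where it cannot be told apart from the group. In HMLS 9 of 16 calls held with it, and in TM 13 of 14. In the water comparisons 0 of 55 were called, and 3 (HMLS against DSS), 1 (TM against DSS) and 5 (HMLS against TM) had an unadjusted p under 0.05.

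**Figure D5:**
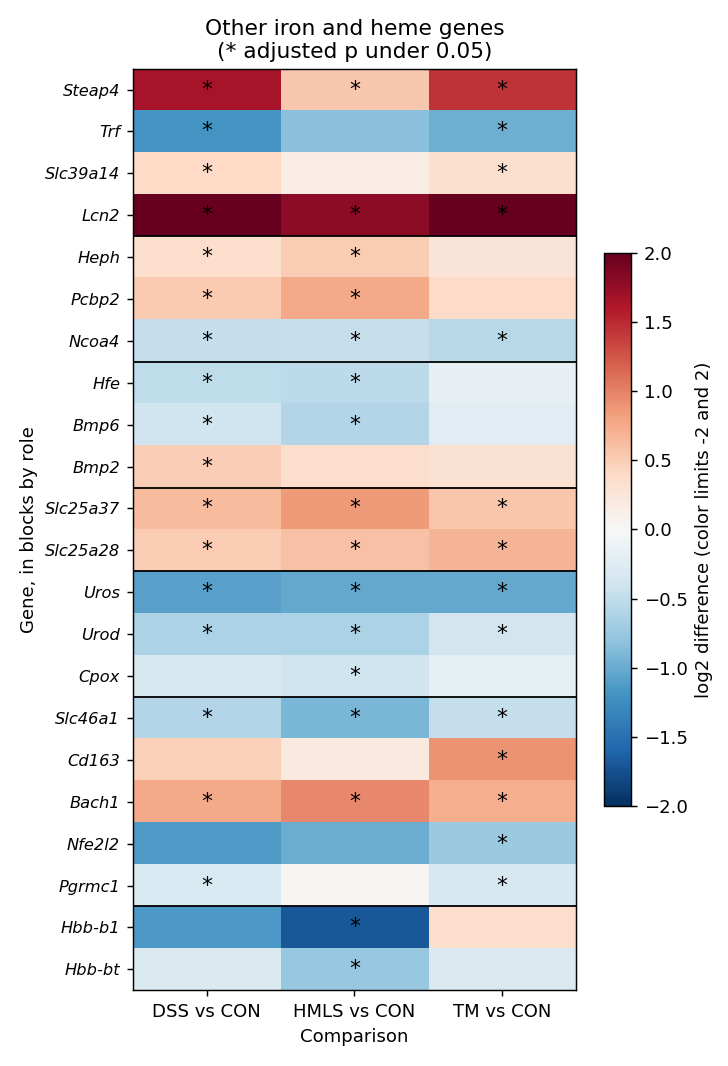
Log2 difference from CON (color, cut at -2 and 2) of the 22 wider-list genes called at least once, in rows by role, with a star at an adjusted p under 0.05. Lcn2 was highest in DSS (3) and TM (3.64), and Uros was near -1 in all 3 columns (-1.08, -1.02 and -1.03).

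Among the genes of iron uptake and iron reduction, Lcn2 and Steap4 had the largest rises. Lcn2, lipocalin 2, binds the siderophores with which bacteria collect iron. It was at 0.223 to 1.14 FPKM in CON, at 17.9, 1.40, 15.8, 2.12 and 127 in DSS, and at 31.1, 48.4, 8.58, 17.9 and 8.65 in TM, so no DSS or TM library overlapped CON. Its log2 difference was 3 ± 0.75 in DSS (SE, adjusted p = 0.0116), 1.79 ± 0.49 in HMLS (SE, adjusted p = 0.0151) and 3.64 ± 0.35 in TM (SE, adjusted p = 4.78e-05). HMLS7, at 0.18 FPKM, was below every CON library. The Lcn2 call in HMLS ended with all 4 groups in one fit and with the percent of mapped reads as covariate. Steap4, a metalloreductase, was at 3.39 to 7.09 FPKM in CON and at 25, 18, 7.85, 11.7 and 26.7 in DSS, with no overlap. It differed by 1.65 (adjusted p = 0.000845) in DSS, 1.45 (adjusted p = 0.00142) in TM and 0.53 (adjusted p = 0.041) in HMLS. With 1 library left out, the HMLS call held only without CON3, CON8, HMLS3 or HMLS8, and it ended in 5 of the 8 other settings. Trf, transferrin itself, fell by 1.19 in DSS (adjusted p = 0.0159) and by 0.97 in TM (adjusted p = 0.0435), the latter call holding only without CON4, CON5 or TM3. With group means removed, Trf was among the genes most like Hp (0.80), and Hp ran with the adipocyte markers. Against CON, Hp differed by 1.36 in DSS and 1.08 in TM, neither called, while Trf fell. The part of fat in the Trf differences was not tested. Slc39a14, the zinc and iron importer ZIP14, rose by 0.40 in DSS (adjusted p = 0.0306) and by 0.32 in TM (adjusted p = 0.0446). Its DSS call ended without CON1, DSS2 or DSS7. With 1 library left out, its TM call held only without CON6, CON8 or TM6, and that call ended in 7 of the 8 other settings.

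Around storage and export, Ncoa4, the receptor that delivers ferritin to lysosomes, fell by 0.48 in DSS (adjusted p = 0.0276), by 0.46 in HMLS (adjusted p = 0.037) and by 0.55 in TM (adjusted p = 0.00676). It was at 53.1 to 87.2 FPKM in CON and at 49.5, 34.5, 50.2, 44.8 and 49.8 in TM, with no overlap. The TM call held in all 13 fits with 1 library left out, while the DSS call ended without CON2, DSS5 or DSS7 and the HMLS call without CON1, CON2, CON6, CON8, HMLS3 or HMLS8. Pcbp2, a cytosolic iron chaperone, rose by 0.53 in DSS (adjusted p = 0.0406) and 0.76 in HMLS (adjusted p = 0.00251). Heph, the ferroxidase that works with ferroportin in enterocytes, rose by 0.35 in DSS (adjusted p = 0.0344) and by 0.51 in HMLS (adjusted p = 0.00661), from 40.7 ± 6.44 FPKM in CON (SD, n = 8) to 51.8 ± 5.03 (SD, n = 5) and 58.0 ± 5.73 (SD, n = 4). For both genes the HMLS calls held in all 12 fits with 1 library left out. In DSS the Pcbp2 call held only without CON6, CON8 or DSS1, and the Heph call only without CON4, CON7, CON8, DSS1 or DSS5.

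In the sensing group, Hfe and the ligand Bmp6, both of which act upstream of hepcidin in liver, fell in DSS (by 0.51 and 0.40, adjusted p = 0.0205 and 0.0482) and in HMLS (by 0.52 and 0.59, adjusted p = 0.0111 and 0.0182). Bmp2 rose by 0.49 in DSS (adjusted p = 0.0182), a call that ended in 3 of the 8 other settings, among them all 4 groups in one fit. None of the 7 sensing genes tested in TM was called. With 1 library left out, the Bmp6 call in DSS held only without CON6, CON8 or DSS1 and in HMLS ended without HMLS8. The Hfe call in DSS ended without DSS6. In the 8 other settings, the Bmp6 call ended in 5 in DSS and in 3 in HMLS, and the Hfe call in HMLS ended in 2.

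The mitochondrial iron importers Slc25a37 and Slc25a28 (mitoferrin 1 and 2) rose in every comparison with CON. Slc25a37 was at 9.43 to 16.1 FPKM in CON, at 15.2, 17.2, 24.1, 19.8 and 28.1 in DSS, at 32.4, 26.5, 17.9 and 21.3 in HMLS, and at 21.0, 18.4, 15.6, 25.2 and 17.4 in TM. All HMLS libraries were above CON, and in DSS and TM 1 library each lay inside the CON range. The log2 differences were 0.63 (adjusted p = 0.00662), 0.85 (adjusted p = 0.00108) and 0.55 (adjusted p = 0.0057) in DSS, HMLS and TM. Slc25a28 differed by 0.51, 0.59 and 0.69 (adjusted p = 0.0104, 0.0052 and 0.000714). Its HMLS call ended with the percent of mapped reads as covariate. The other 9 genes of mitochondrial iron and iron-sulfur clusters were not called in any of the 3.

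Of the heme synthesis enzymes tested, 2 of 8 fell in DSS, 3 of 7 in HMLS and 2 of 8 in TM, where 13.1%, 16.6% and 11.8% of all genes fell, and none rose. Uros and Urod, consecutive enzymes that make and trim the porphyrin ring, fell in all 3. Uros was at 6.2 to 10.2 FPKM in CON, at 3.10, 3.99, 1.48, 5.86 and 2.18 in DSS, at 1.98, 4.46, 5.12 and 2.27 in HMLS, and at 3.45, 2.02, 3.67, 3.53 and 3.67 in TM, with every colitis library below every CON library. It fell by 1.08 in DSS (adjusted p = 0.00218), by 1.02 in HMLS (adjusted p = 0.00134) and by 1.03 in TM (adjusted p = 0.000171). Urod was at 23.3 to 32.2 FPKM in CON and at 10.9 to 19.3 in DSS, 11.8 to 20.5 in HMLS and 17.2 to 22.4 in TM, again without overlap. Its falls were 0.63, 0.63 and 0.37 (adjusted p = 0.0033, 0.00271 and 0.0126), and its TM call ended with all 4 groups in one fit. Cpox, a later enzyme of the same path, fell by 0.40 in HMLS (adjusted p = 0.0225), a call that ended without HMLS3 or HMLS8.

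Around heme breakdown, Bach1, a repressor of the Hmox1 gene that heme releases from DNA, rose in all 3 comparisons, with every colitis library above every CON library. It was at 12.2 to 14.1 FPKM in CON, at 16.2, 20.3, 42.3, 17 and 25.7 in DSS, at 36.7, 21.2, 16.9 and 36.3 in HMLS, and at 19.0, 29.8, 18.6, 21.1 and 24.3 in TM. The log2 differences were 0.76 (adjusted p = 0.00624), 0.96 (adjusted p = 0.000947) and 0.72 (adjusted p = 0.000315). Slc46a1, a folate and heme transporter, fell by 0.58, 0.92 and 0.48 (adjusted p = 0.0278, 0.000462 and 0.0098) in DSS, HMLS and TM, and its DSS call ended without CON3 or DSS7. Pgrmc1, a heme-binding membrane protein, fell by 0.31 in DSS (adjusted p = 0.0348), a call that ended without CON2, CON5, CON8, DSS2, DSS6 or DSS7. It fell by 0.33 in TM (adjusted p = 0.0389), a call that held only without CON1, CON3, CON4, CON7 or TM8. Nfe2l2, the activator NRF2 that drives Hmox1 and the ferritin genes, fell in TM by 0.75 (adjusted p = 0.00832), from 95 ± 12.3 FPKM in CON (SD, n = 8) to 59 ± 22 (SD, n = 5). That call ended with all 4 groups in one fit. The log2 differences from CON were larger but not called in DSS (-1.136, adjusted p = 0.0862) and HMLS (-0.999, adjusted p = 0.121). Nfe2l2 spread more widely there, at 57.7 ± 36.5 FPKM in DSS (SD, n = 5) and 64.9 ± 49 in HMLS (SD, n = 4). Its lowest libraries were DSS5 and HMLS3, at 6.75 and 10.8 FPKM. Cd163, the macrophage receptor for the haptoglobin-hemoglobin complex, rose in TM by 0.90 (adjusted p = 0.000721), where it was at 4.24, 2.65, 1.98, 3.73 and 2.64 FPKM, above all CON libraries (0.841 to 1.53). Cd163 is itself 1 of the macrophage markers summed above, whose sum was also highest in TM, and the part of macrophage number in its difference was not tested.

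Hemoglobin messages, which in bulk tissue come with blood, fell in HMLS in 2 of 3 genes tested, where 16.6% of all genes fell, and none was called in DSS or TM. Hbb-b1 was at 14.1 to 53.5 FPKM in CON and at 15.5, 10.3, 9.12 and 3.08 in HMLS, a fall of 1.69 (adjusted p = 0.0102), with HMLS3 inside the CON range. The call ended with all 4 groups in one fit. In DSS it spread from 0.0425 to 91.6 FPKM and in TM from 10.4 to 207. Hbb-bt fell by 0.76 in HMLS (adjusted p = 0.0425). With 1 library left out, that call held only without CON4, CON5, CON6, CON8 or HMLS7, and it ended in 5 of the 8 other settings. The adult beta globin genes are near-identical copies, so the split of reads between them is uncertain. With group means removed, the erythroid sum correlated with Hmox1 at 0.05 over the 22 libraries and with Hp at 0.32. Hmox1 correlated with the smooth muscle sum at 0.54, the macrophage sum at 0.21, the neutrophil sum at 0.19 and the adipocyte sum at 0.05. With the colon epithelium, hepatocyte and dividing cell sums it was at -0.10, -0.18 and -0.37. The part of tissue makeup in the Hmox1 values was not tested.

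With group means removed, the 9 genes were also set against 12793 others by the correlation of log2(FPKM + 1) over the 22 libraries, given as a description. Fth1 was most like Anp32b, Nrd1 and Rab7 (0.92 each). Rab7 was at 89.6 FPKM in CON8 and at 33.4 to 72.8 in the other CON libraries. Cp was most like Pla2g7 (0.91), Aldh1a3 (0.89) and Csf2rb2 (0.87), and Ireb2 was most like Dmxl1 and Nbeal1 (0.90 each) and Nr3c1 (0.89). Slc40a1 was most like Sort1 (0.89), Slc17a4 (0.88) and Acad12 (0.87), and Hmox1 like Gclc (0.85), Akr1b8 (0.84) and Phka2 (0.78). Hp was most like Trf, Ifi27l2a and Fabp4 (0.80 each), Slc11a2 like Galnt4 (0.79), Srd5a3 (0.78) and Epg5 (0.77), and Ftl1 like Gstp2 (0.79), Ap1b1 (0.74) and Txnrd2 (0.73). Tfrc had the lowest top values, with Hmgxb3 (0.70), Cbr2 (0.69) and Loh12cr1 (0.69).

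Among the 9 genes themselves the same correlations were highest between Slc40a1 and Ireb2 (0.68) and between Slc40a1 and Slc11a2 (0.57). The lowest were between Slc11a2 and Cp (-0.65) and between Tfrc and Slc40a1 (-0.53). The ferritin chains Fth1 and Ftl1 had a correlation of 0.40, and Ftl1 ran with Hmox1 at 0.55.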

How the data were processed

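Colon total RNA of 22 libraries was extracted with Trizol and prepared with the TruSeq Stranded Total RNA kit, per the labels' protocols. The submitters' processing notes name bcl2fastq 2.20, Bowtie, TopHat2 2.0.13, Cufflinks 2.2.0 and mm10, with no settings. The authors deposited 1 expression table of 23997 genes, read as FPKM (scaled by transcript length and library size), from the tools named and its decimals, since it names no unit. For each library the read count and the percent mapped were deposited too. The reads per gene are unknown, so no count test was run.

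The test was limma 3.58.1 (R 4.3.3, trend and robust variance) on log2(FPKM + 1). Genes had to reach 1 FPKM in 4 libraries of a fit, and calls were made under 0.05 after Benjamini-Hochberg adjustment. Folds are of FPKM + 1 and understate low genes. A comparison with CON was fitted on its pair of groups, and the other 3 on all colitis groups together. Titles gave the groups. The 9 genes, the wider list and the marker lists were chosen with earlier results of these data known. Named besides the 9 were called genes of the wider list, at most 4 for each role and comparison by smallest p, and the 3 genes most like each of the 9. An item of the wider list is not reported here. Hairpins were searched for in GENCODE M21 transcripts of GRCm38. No libraries held identical values (0 pairs). The labels do not say what the numbers in the titles mean. Same-numbered TM and DSS libraries correlated above 0.1 in all 3 pairs (0.137 to 0.432, group means removed), so the numbers may pair them, which is not known. A block on the numbers called 0 genes in TM against DSS, as did the fit without it. The script recovered changes planted in simulated data. Alternatives changed the pseudocount (0.1), filter, scaling, variance model, groups fitted, covariate, block or 1 library.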

Additional observations from a re-analysis of the deposited data

Results flagged for a closer look

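Of 36 combinations of gene and group, 3 held a library that stood apart by Dixon's test, where chance gives 5%. Fth1 was at 2720 FPKM in CON8, with the nearest CON library at 1010. Fth1 was at 888 FPKM in DSS1, with the nearest DSS library at 2430. Hmox1 was at 20.7 FPKM in CON8, with the nearest CON library at 3.30.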

How the results depend on the processing

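Of 1026 values of the 9 genes under other settings, 919 kept their direction and side of the threshold, 13 came past it, 27 left it and 67 changed sign, all of the last uncalled with and without the change. Of the 9 genes, 2 were called in DSS against CON, 1 without the filter on low values, 1 after quantile normalization and 0 with the percent of mapped reads as covariate. In HMLS against CON 2 were called, and 1 with all 4 groups in one fit. With 1 library left out the numbers called ran from 0 to 3 in DSS, 1 to 4 in HMLS and 1 to 3 in TM against CON, with the highest of each without CON8. The fit with a replicate block called 0 of the 9 in HMLS against CON, 2 in TM against CON (Cp and Hmox1) and 3 in DSS against CON (with Hmox1 at 1.84, adjusted p = 0.0395). In HMLS the block left Fth1 at 0.98 (adjusted p = 0.0703) and Slc11a2 at -0.81 (adjusted p = 0.112). Same-numbered libraries did not correlate in every pair there (-0.201 to 0.324 in DSS, -0.108 to 0.071 in HMLS and -0.003 to 0.203 in TM against CON, -0.326 to 0.326 in HMLS against DSS, -0.227 to 0.048 in HMLS against TM), so the numbers may be shared only by name. Of the wider list's calls the block ended 7 of 17 in DSS, 11 of 16 in HMLS and 2 of 14 in TM against CON. Over all genes the count called in DSS against CON went from 3655 to 26 with the covariate and 2176 with the block. With the block it went from 4565 to 753 in HMLS and from 3510 to 2000 in TM against CON. With Slc40a1 the covariate gave 1.26 in HMLS (adjusted p = 0.0309), past the threshold, and 1.22 in DSS (adjusted p = 0.344). The percent mapped was 82.3% to 88.9% in DSS and 89.9% to 91.9% in CON, without overlap. In DSS against CON the covariate thus cannot be told apart from the group. The cause of the moves under the covariate and the block was not tested. Unknown reads per gene limit what can be said of Hp and Cp, the genes nearest the filter.

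The sign changes were as follows. With the percent of mapped reads as covariate, Cp in DSS against CON was -0.43, Tfrc and Ftl1 in HMLS against CON were -0.37 and 0.10, Fth1 in TM against DSS was 0.56, and Ftl1 and Hmox1 in HMLS against TM were 0.01 and -0.14. After quantile normalization, Ftl1, Slc11a2 and Ireb2 in DSS against CON were -0.05, -0.05 and -0.06, Tfrc was 0.00 in HMLS and -0.03 in TM against CON, Hmox1 in TM against DSS was -0.01, and Ftl1 in HMLS against TM was 0.08. Cp in DSS against CON was -0.02 with median ratio scaling and with a pseudocount of 0.1. With the replicate block, Cp in DSS against CON was -0.04, Tfrc and Hmox1 in HMLS against DSS were 0.14 and -0.88, Slc11a2 and Hmox1 in TM against DSS were 0.23 and -1.08, and Slc40a1 in HMLS against TM was -0.01. With 1 library left out, the ranges that crossed 0 were, in DSS against CON, -0.05 to 0.11 (Ireb2), -0.45 to 0.24 (Slc11a2) and -0.19 to 0.15 (Cp). In HMLS against CON they were -0.16 to 0.03 (Ftl1) and -0.03 to 0.32 (Tfrc), and in TM against CON -0.22 to 0.29 (Tfrc) and -0.09 to 0.06 (Ftl1). In HMLS against DSS they were -0.05 to 0.38 (Fth1), -0.82 to 0.70 (Hmox1) and -0.38 to 0.02 (Tfrc). In TM against DSS they were -0.56 to 0.48 (Hmox1), -0.89 to 0.27 (Hp) and -0.64 to 0.05 (Slc11a2). In HMLS against TM they were -0.83 to 0.76 (Hmox1), -0.17 to 0.34 (Tfrc), -0.13 to 0.04 (Ftl1) and -0.18 to 0.46 (Slc40a1).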
